A study of Homo sapiens with 12 samples.

Results

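The promoters of 77 genes that encode proteins of the cytosolic ribosome were described, out of 20136 protein-coding genes on chromosomes 1 to 22, X and Y. The genes were chosen by symbol alone: RPL or RPS followed by digits and at most a letter A or X, with RPLP0, RPLP1, RPLP2 and RPSA, and without the kinases named RPS6K, readthrough genes with a hyphen, the Y-linked copies and the -like paralogs. They comprised 46 genes of the large subunit (RPL) and 31 of the small subunit (RPS). Measured values played no part in that rule. FAU also encodes a ribosomal protein, fused to a ubiquitin-like part, but carries another symbol and was counted in a separate list.

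The ribosome joins a large subunit, which forms peptide bonds, to a small subunit, which reads the messenger RNA. Ribosomal protein genes are transcribed at high rates in dividing cells, from promoters that often lack a TATA box, and their messenger RNAs begin with a cytosine followed by a run of pyrimidines, the 5′ terminal oligopyrimidine (TOP) motif, through which their translation is controlled. Trimethylation of lysine 4 of histone H3 (H3K4me3) marks nucleosomes beside active start sites. Many processed pseudogenes, copies made from messenger RNA and without the parent's promoter, are scattered through the genome for each of these genes.

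The cells were BON1, an established human pancreatic neuroendocrine tumor line, grown in medium with puromycin. Control cells were BON1/TGL/pQ. The compared line, BON1/TGL/HA-Bcl-xL, overexpresses an HA-tagged form of the anti-apoptotic protein Bcl-xL on the same BON1/TGL background. The promoter that drives the transgene and whether a line is 1 clone are not given in the sources used here. H3K4me3 was profiled by CUT&RUN, in which an antibody directs a nuclease to chromatin and the released fragments are sequenced, beside reactions with a rabbit anti-mouse IgG, from 500000 cells per condition. Of 12 samples in the labels, 11 peak lists were used. They were H3K4me3 from 3 control replicates and from replicates 2 and 3 of the HA-Bcl-xL line, and IgG from 3 replicates of both lines. Replicate 1 of H3K4me3 in the HA-Bcl-xL line was not analysed here. The comparison asks whether H3K4me3 at promoters differs between the lines.

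The H3K4me3 lists held 10247 to 17711 peaks and the IgG lists 244 to 2113, and the median summit held 9 to 12 fragments for H3K4me3 and 3 to 5 for IgG. The lists give no read totals. The labels do not say that replicates came from separate cultures, so p-values measure the spread between these samples, which may be technical. Of 9 neuroendocrine marker genes, 2 to 5 had a promoter peak per H3K4me3 library, with CHGB (a granin) and NEUROD1 (a transcription factor) marked in every one, CHGA in 1, and SSTR2 and INSM1 in 0 within 1 kb. INSM1 had a peak in all 5 within 2.5 kb, and TPH1, an enzyme of serotonin synthesis, had one in 2 of 2 HA-Bcl-xL and 0 of 3 control libraries. That split was held by 0.844% of all genes, or 3.04% without control replicate 1, and was not tested. Over all protein-coding genes 28.2% to 40.4% had a promoter peak per H3K4me3 library. Of 7 fibroblast, blood and endothelial marker genes, 0 had a peak within 1 kb in any library.

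The start regions of 8 genes are shown because the results below turn on them: 4 with highly ranked promoter peaks, and 4 with no peak at the annotated 5′ end. Each line runs 5′ to 3′ from 60 bases before to 15 after the start of the canonical transcript in GRCh37, and capitals mark a TOP-type tract, a C followed by at least 4 pyrimidines that covers the start or lies within 10 bases of it. The first 4 are RPL7A (chr9:136215013-136215087, plus strand), RPL37A (chr2:217363507-217363581, plus strand), RPL28 (chr19:55897240-55897314, plus strand) and RPS23 (chr5:81574159-81574233, minus strand).
RPL7A: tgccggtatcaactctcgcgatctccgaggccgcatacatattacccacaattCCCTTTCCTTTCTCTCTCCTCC
RPL37A: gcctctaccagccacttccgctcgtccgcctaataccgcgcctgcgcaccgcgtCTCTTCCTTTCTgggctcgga
RPL28: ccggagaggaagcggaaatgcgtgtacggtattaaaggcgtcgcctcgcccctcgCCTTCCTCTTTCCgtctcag
RPS23: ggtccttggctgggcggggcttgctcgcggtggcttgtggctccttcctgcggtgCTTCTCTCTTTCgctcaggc

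The other 4 are RPL22 (chr1:6259641-6259715, minus strand), RPL4 (chr15:66797179-66797253, minus strand), RPL36 (chr19:5690246-5690320, plus strand) and RPL3 (chr22:39715614-39715688, minus strand).
RPL22: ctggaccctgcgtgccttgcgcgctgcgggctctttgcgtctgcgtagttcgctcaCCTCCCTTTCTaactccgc
RPL4: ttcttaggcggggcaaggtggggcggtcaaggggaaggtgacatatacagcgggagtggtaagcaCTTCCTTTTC
RPL36: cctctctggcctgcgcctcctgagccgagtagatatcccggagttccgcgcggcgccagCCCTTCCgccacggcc
RPL3: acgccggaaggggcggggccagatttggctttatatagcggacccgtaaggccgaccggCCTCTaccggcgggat

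Tracts were read up to 15 bases after the start. Within that window 22 bases of the RPL7A tract were seen, which runs to the window's edge, and 5 bases in RPL3. RPL17, RPL27 and RPS4X had no such tract in the window. In all, 73 of the 77 genes (94.8%) had a tract, against 33.5% of all protein-coding genes. The stretch shown ends in the first bases of the 5′ untranslated region.

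Most cytosolic ribosomal protein genes carried an H3K4me3 peak in both lines. A gene was counted when at least 1 base of a peak lay within 1 kb of its most 5′ annotated end. In control cells 70, 59 and 56 of the 77 genes were counted in replicates 1, 2 and 3, which is 90.9%, 76.6% and 72.7%. In HA-Bcl-xL cells 65 and 63 genes were counted in replicates 2 and 3, which is 84.4% and 81.8%. All 6 IgG libraries had 0, where 1 to 51 of the 20136 protein-coding genes (at most 0.25%) had a peak, so a count of 0 among 77 genes is not particular to these genes.

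Over all protein-coding genes the same count gave 40.4%, 32.4% and 28.2% in the control libraries and 38.1% and 36.5% in the HA-Bcl-xL libraries. The ribosomal share was thus 2.22 to 2.58 times that of all genes in the 5 libraries, a mean difference of 46.2 percentage points. Per library the number of ribosomal genes counted followed the length of the list: the longest list, control replicate 1, had the most and the shortest, control replicate 3, the fewest.

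**Figure D1:**
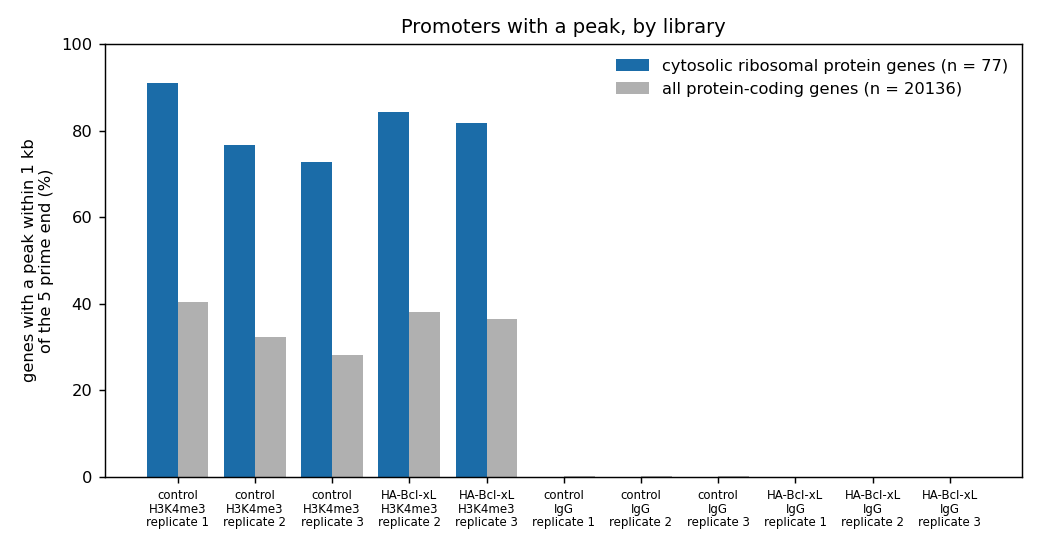
Share of genes (%) with a peak within 1 kb of the annotated 5′ end, for the 77 cytosolic ribosomal protein genes and all 20136 protein-coding genes in each of the 11 libraries. The ribosomal bars stand between 72.7% and 90.9% in the 5 H3K4me3 libraries and at 0 in the 6 IgG libraries.

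H3K4me3 libraries had 62.83 more ribosomal genes with a peak than IgG libraries, averaged over the lines. A two-sided exact permutation test that reassigned antibodies within each line gave p = 0.005, the smallest it can give, and 0.025 after Benjamini-Hochberg adjustment over the 5 tests of these genes. With same-numbered H3K4me3 and IgG libraries paired (a replicate block), the difference was 62.6 and the exact sign-flip permutation p 0.0625, the smallest that 5 pairs can give, so the call was lost. Since IgG peaks reached so few promoters of any kind, these values compare the 2 antibodies and say nothing particular about ribosomal genes. Within control cells alone the difference was 61.67, and within HA-Bcl-xL cells 64, and each gave p = 0.1 by exact permutation (0.16667 adjusted), which is the lowest value such small groups can reach. At 2.5 kb the IgG count rose from 0 only in control replicate 3, with a peak of 3 fragments at -1833 bases from the 5′ end of RPL15 and another of 3 fragments at -1364 bases from that of RPL28.

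The same promoters were marked in library after library. A peak was present in all 5 H3K4me3 libraries at 45 genes (58.4%), where 21.3% of all genes had one, and in at least 1 library at 73 genes, where the background was 48.2%. Of the rest, 13 genes had a peak in 4 libraries, 9 in 3, 3 in 2, 3 in 1 and 4 in 0. Among the 13, the library without the peak was control replicate 3 for 8 genes, control replicate 2 for 3, control replicate 1 for RPS6 and HA-Bcl-xL replicate 2 for RPS3. Large-subunit genes reached all 5 libraries in 30 of 46 cases and small-subunit genes in 15 of 31.

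Of the 4 genes with no peak at the annotated 5′ end, 3 had one in every library at another start. When the window was centred on the start of the canonical transcript instead, all 77 genes had a peak in at least 1 library (background 52%) and 52 in all 5 (background 22.9%), with 0 in every IgG library. The canonical starts of RPL22, RPL36 and RPL4 lie 9794, 15348 and 19677 bases downstream of the most 5′ annotated ends. All 3 genes had a peak there in 5 of 5 libraries.

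At the canonical start of RPL4, a core protein of the large subunit near the exit tunnel, peaks covered 694, 435 and 310 bases in the control libraries and 466 and 567 in the HA-Bcl-xL libraries. The summit of the strongest peak held 21 to 39 fragments. At RPL22, which encodes an RNA-binding protein of the large subunit, peaks covered 496, 336 and 152 bases in control and 397 and 771 in HA-Bcl-xL libraries. RPL36 gave 418, 311 and 193 bases in control and 346 and 357 in HA-Bcl-xL libraries, with the strongest summit 621 to 761 bases downstream of the start. In each of the 3 genes control replicate 3, the shortest list, had the fewest bases.

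RPL3, whose product helps shape the peptidyl transferase center, differed from these. Its canonical start is 766 bases from the annotated end, and only control replicate 3 had a peak within 1 kb of it, of 101 bases with its summit 895 bases downstream. Within 2.5 kb of the 5′ end, control replicates 1 and 3 and HA-Bcl-xL replicate 2 had peaks, all of them past the start. RPL7, RPL6 and RPL10 also gained from the canonical start: RPL7 went from 1 to 5 libraries, RPL6 from 4 to 5 and RPL10, on the X chromosome, from 3 to 4. Within 2.5 kb of the 5′ end 48 genes had a peak in all 5 libraries (background 25.6%) and 74 in at least 1 (background 53.5%).

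A few genes were marked in few libraries with either start. RPS18, a small-subunit protein of the head, had 1 peak, of 103 bases, in control replicate 3. RPS18 lies in the part of chromosome 6 for which hg19 holds alternative haplotype contigs, and 75 to 135 peaks of each H3K4me3 list lay on those contigs, against at most 1 of each IgG list. Whether reads of RPS18 were placed there was not tested. RPL10A had a peak of 84 bases in control replicate 1, and within 2.5 kb in 3 libraries. RPS4X, the X-linked form of a small-subunit protein, had 103 and 98 bases in control replicates 1 and 2, with summits 689 and 839 bases downstream, and 0 in the other 3 libraries. RPL14 had a peak in 1 library of either line.

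The plot of bases under peaks shows how the amount of marked sequence varied among the genes. RPL37, a zinc-binding protein of the large subunit, had the most in any single library, with 916, 701 and 404 bases in the control libraries and 765 and 544 in the HA-Bcl-xL libraries. RPS23, which sits at the decoding center, had 902, 835 and 513 bases in control and 624 and 600 in HA-Bcl-xL libraries. RPLP1, an acidic protein of the ribosomal stalk, had 606, 638 and 311 bases in control and 497 and 567 in HA-Bcl-xL libraries. For all 3 genes control replicate 3 was the lowest library, and both values of the HA-Bcl-xL line fell between the extremes of control cells.

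**Figure D2:**
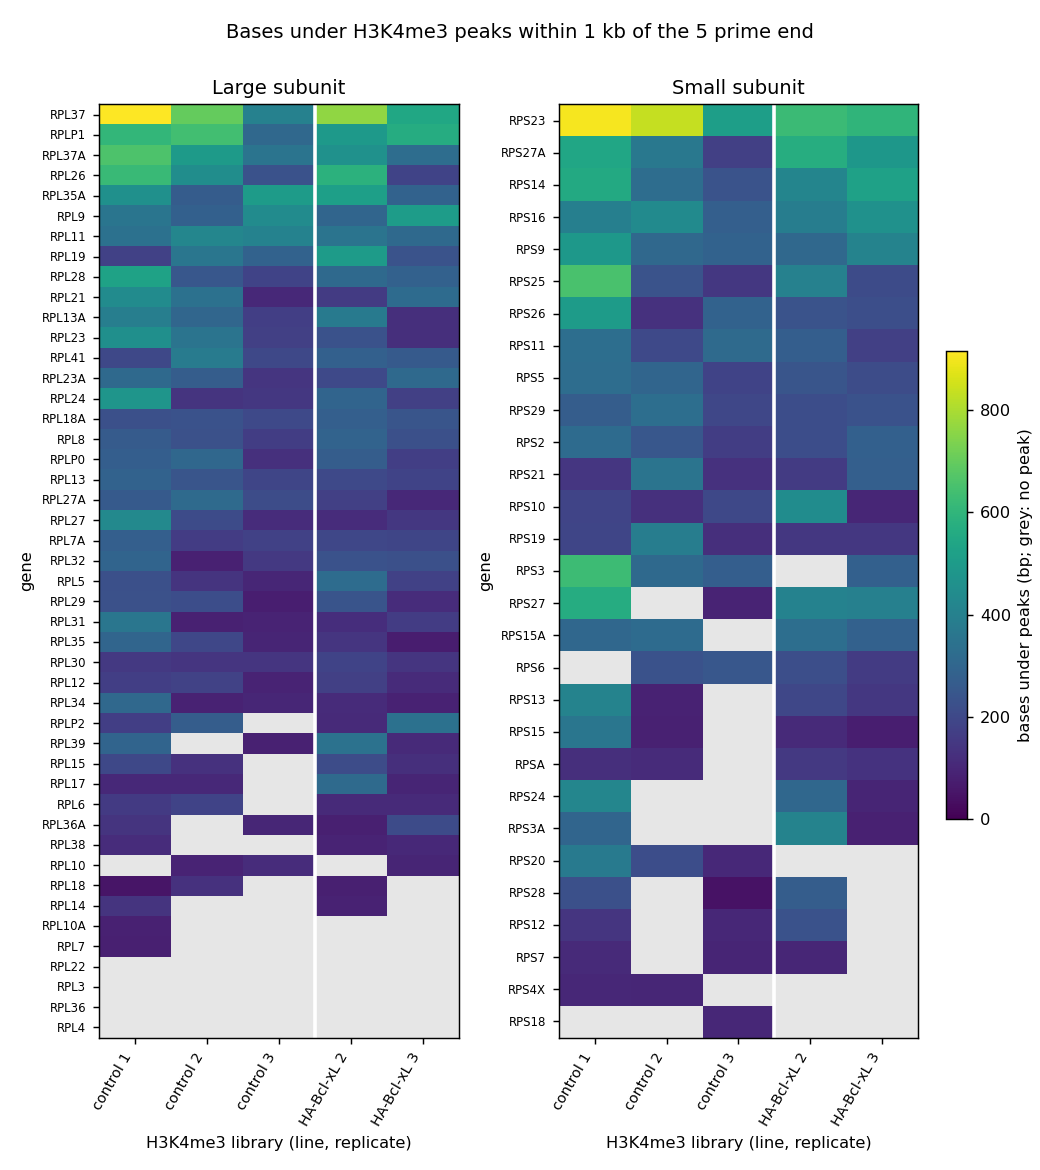
Bases under H3K4me3 peaks within 1 kb of the annotated 5′ end (color scale, bp) for the large-subunit and small-subunit genes named here (rows) in the 5 H3K4me3 libraries (columns), with grey for no peak. RPL37 and RPS23 head the panels at 916 and 902 bases in control replicate 1, and 4 genes are grey throughout.

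Rank within a list put other genes first. The strongest promoter peak of each gene was ranked by the authors' −log10 p among all peaks of its list, as a percentile, and the mean was taken over the 5 libraries for the 45 genes marked in all. RPL7A, a large-subunit protein and snoRNA host gene, came first with a mean percentile of 98.6 and 38, 42 and 26 fragments at the summit in control and 28 and 32 in HA-Bcl-xL libraries. RPL7A also showed that rank and breadth differ, with peaks over only 277, 163 and 176 bases in control and 195 and 192 in HA-Bcl-xL libraries. The 10 highest also held RPL37A and RPL28, both at 97.6, RPS23 at 96.7, RPL11 at 95.8, RPL13 at 95.2, RPS26 at 94.2, RPS9 at 94.1 and RPL30 at 93.8.

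The ranks of these genes stayed high in every library, the lowest being the 79.3rd percentile for RPL30 in control replicate 3. At the other end stood RPL34 at a mean percentile of 34.5, RPL35 at 36.2, RPS10 at 37, RPL5 at 51.6 and RPL24 at 55.3. RPL34 ranged from the 0.4th percentile in HA-Bcl-xL replicate 2 to the 72.2nd in HA-Bcl-xL replicate 3, with 5 and 11 fragments at the summit. RPL5, which with RPL11 binds the 5S ribosomal RNA and MDM2, ranged from the 16.3rd to the 78.8th percentile across control libraries. For both genes libraries of 1 line thus differed more than the lines did.

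Among genes with a peak, the ribosomal ones ranked higher than protein-coding genes at large in each library. Their median percentile was 80.6, 74.7 and 68.4 in control and 77.7 and 73.7 in HA-Bcl-xL libraries, against 68.4, 65.1 and 64.2 in control and 68.0 and 67.5 in HA-Bcl-xL libraries for all genes. The gap was widest in control replicate 1 and narrowest in control replicate 3. At least 2 separate peaks lay in the window of 60%, 44.1% and 30.4% of the marked ribosomal genes in control and of 56.9% and 44.4% in HA-Bcl-xL libraries. For all marked genes these shares were 45.0%, 30.8% and 26.6% in control and 40.9% and 38.7% in HA-Bcl-xL libraries.

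Peaks at ribosomal genes sat close to the start, with a second, lower zone downstream. Averaged over the 5 libraries, among genes with a peak within 1 kb of the canonical start, the position most often under a peak was 30 bases upstream, at 69.23% of ribosomal genes, against a maximum of 43.91% for all genes 40 bases upstream. The share fell to 2.0% of ribosomal genes 150 bases downstream and reached 27.83% again 600 bases downstream. All genes showed the dip and the later rise too. They stood at 3.54% at 150 bases, with a low of 3.41% at 130 bases, and at 13.17% at 600 bases. In single libraries the share at 600 bases was 39.19%, 32.81% and 19.05% in control and 30.43% and 17.65% in HA-Bcl-xL libraries, each above the 10.52% to 16.57% of all genes.

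**Figure D3:**
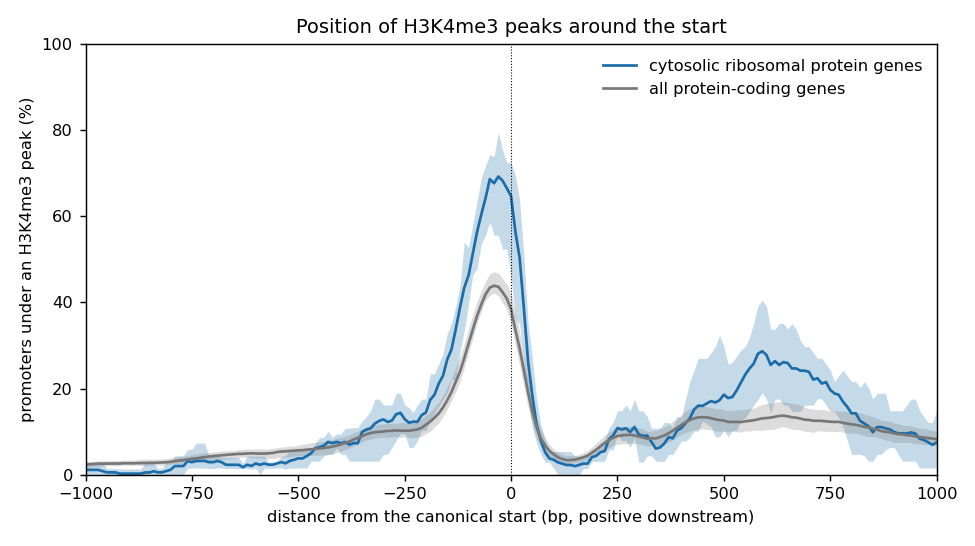
Share of promoters under an H3K4me3 peak (%) at each distance from the canonical start (bp, positive downstream), as the mean of the 5 H3K4me3 libraries (lines) and their range (bands), among genes with a peak within 1 kb of that start. The ribosomal line peaks at 69.23% just upstream, dips to 2.0% at 150 bases and rises to 27.83% at 600 bases. The line of all genes dips to 3.41% at 130 bases and stands at 13.17% at 600 bases.

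The strongest summit lay within 100 bases of the canonical start at 45.9%, 45.3% and 46.0% of marked ribosomal genes in control and 52.2% and 51.5% in HA-Bcl-xL libraries. For all marked genes the range was 32.3% to 35.5%. RPL11 had its summit 410 to 437 bases downstream in 4 libraries and 35 bases upstream in control replicate 3. At RPL28 the summit lay 450 to 520 bases upstream in all 5 libraries.

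Base composition was near that of other promoters. The 2 kb around the 5′ end had a median GC content of 53.5% (range 37.5% to 72.0%) against 55.0% for all genes, and a median ratio of observed to expected CpG of 0.719 against 0.612. The 45 genes marked in all 5 libraries had a median GC content of 54.0% and the other 32 of 53.3%. With all genes split into 10 GC classes of about equal size, the 4 classes between 47.1% and 57.2% GC held 16, 13, 13 and 10 ribosomal genes. In those classes 72.3% to 88.0% of ribosomal promoters had a peak, averaged over the 5 libraries, against 40.1% to 48.0% of all promoters.

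Sequence motifs were searched on both strands from 250 bases before to 50 after the canonical start. CCGGAAG, a core of ETS-family sites, was found at 27 ribosomal genes (35.1%) and at 14% of all genes. AAGATGGC, a core of YY1 sites, was found at 10 (13.0% against 4.0%), and GCATGCG, part of NRF1 sites, at 8 (10.4% against 5.1%). The shares were closer for CCAAT at 26 genes (33.8% against 35.9%), for TATAAA at 6 (7.8% against 9.8%) and for the E-box CACGTG at 5 (6.5% against 8.7%). Of the 52 genes marked at the canonical start in all 5 libraries, 19 held CCGGAAG and 50 a TOP-type tract. These matches describe letters in a window and not binding.

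At 15 of the genes a protein-coding gene on the other strand starts within 1 kb, so that a peak there cannot be given to either gene alone. The nearest pairs were RPL36A with BTK and RPS18 with VPS52, each 28 bases apart, then RPS25 with TRAPPC4 at 72, RPL9 with LIAS at 73, RPL12 with LRSAM1 at 83, RPL7A with MED22 at 87 and RPL27A with TRIM66 at 94. Of the 15, 9 had a peak in all 5 libraries (60%), as did 36 of the 62 without such a neighbor (58.1%). Genes that host a small nucleolar RNA were marked in all 5 libraries in 16 of 29 cases (55.2%), and those that host none in 29 of 48 (60.4%).

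Related gene lists were counted in the same way. Of 78 mitochondrial ribosomal protein genes, 67, 62 and 57 had a peak in control and 65 and 70 in HA-Bcl-xL libraries, and 51 had one in all 5. Of 18 ribosome biogenesis genes, among them the nucleolar proteins FBL and NOP58, 9 had a peak in all 5 libraries. Of 16 other genes with TOP messenger RNAs, which encode translation factors such as EEF2 and proteins such as NPM1, 11, 9 and 9 had a peak in control and 11 and 12 in HA-Bcl-xL libraries, and 7 had one in all 5. EEF1A1, an elongation factor, had none in any library with either start, and RACK1, a scaffold on the small subunit, had none at the 5′ end and a peak in all 5 at the canonical start. FAU had a peak in all 5 libraries.

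**Figure D4:**
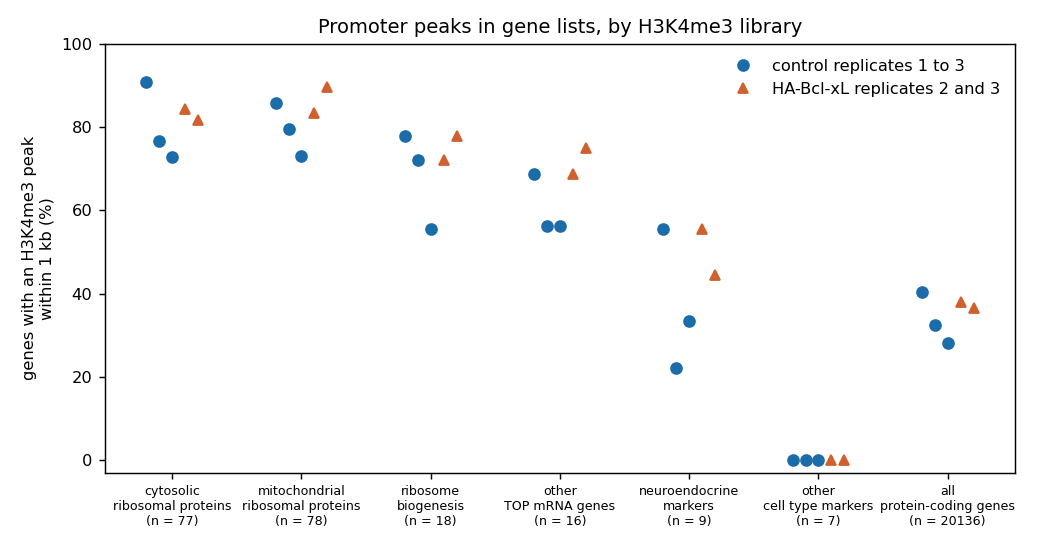
Share of genes (%) with an H3K4me3 peak within 1 kb of the annotated 5′ end, for 7 gene lists, with 1 circle for each of 3 control libraries and 1 triangle for each of 2 HA-Bcl-xL libraries. Cytosolic and mitochondrial ribosomal protein genes lie above all protein-coding genes in every library, and the other cell type markers lie at 0.

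Among the paralogs that the rule left out, RPL22L1, RPL26L1, RPL36AL, RPL7L1 and RPS27L had a peak in all 5 libraries. RPL10L, RPL3L and RPL39L, copies whose known expression is limited to few tissues, had 0 at the 5′ end. Of 1586 pseudogenes named for the 77 genes, 15, 12 and 7 had a peak within 1 kb of their 5′ end in control and 13 and 7 in HA-Bcl-xL libraries, which is 0.441% to 0.946%, against 1 to 6 in the IgG libraries. Of the 1586, only RPSAP31 and RPS29P16 had one in all 5, and both lie near the start of a coding gene. Of all 15380 pseudogenes, whatever their parent, 1.508% to 2.146% had a peak in the H3K4me3 libraries. Among the 1546 pseudogenes of the 77 genes that lie over 2 kb from a coding start, the H3K4me3 libraries had 1 to 6 and the IgG libraries 1 to 6, and of all pseudogenes that far away 0.977% to 1.445% were marked in the H3K4me3 libraries. How reads with several matches were placed is not given in the sources used here.

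Between the lines, the number of marked ribosomal genes did not differ beyond the spread of the replicates. Control libraries had 61.67 ± 7.37 genes (SD, n = 3) and HA-Bcl-xL libraries 64.0 ± 1.41 (SD, n = 2), and the latter fell between the extremes of the former. The difference of 2.33 gave a two-sided exact permutation p of 0.8 (0.8 adjusted), where the smallest possible with 3 against 2 is 0.1. With the same 10247 peaks taken from each list the counts were 61, 59 and 56 in control and 58 and 56 in HA-Bcl-xL libraries, and the difference turned to -1.67. Leaving out control replicate 3 turned it to -0.50, so its sign was not fixed.

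RPS20, a small-subunit protein of the head, was the only gene with a peak in every control library and none in HA-Bcl-xL cells, a pattern held by 0.248% of all genes. Its peaks covered 373, 216 and 106 bases in control replicates 1 to 3 and 0 in both HA-Bcl-xL libraries. The strongest summits held 8 to 12 fragments, 252 to 871 bases downstream of the start, and the same split held at the canonical start and at 2.5 kb. A non-coding gene, CERNA3, starts 82 bases away on the other strand. The opposite pattern, a peak in HA-Bcl-xL replicates 2 and 3 alone, was held by 0 ribosomal genes and 0.844% of all genes. Without control replicate 1, 3 genes (RPL38, RPS24 and RPS3A) had that opposite pattern, as did 3.04% of all genes. The first pattern was held by 2 genes without control replicate 3 (RPS20 and RPS4X, with 0.844% of all genes) and by 2 without HA-Bcl-xL replicate 3 (RPS20 and RPS3, with 0.765% of all genes).

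The median distance of the strongest summit from the 5′ end was 27.5, 21.0 and 66.0 bases in control and 37 and 1 in HA-Bcl-xL libraries. The difference of -19.17 bases gave a two-sided exact permutation p of 0.6 (0.75 adjusted). Its size was not fixed: it was -68.5 bases in a 2.5 kb window, -6.5 from the canonical start, and -37.17 to -1.167 with 1 library left out, the extremes being without HA-Bcl-xL replicate 2 and without HA-Bcl-xL replicate 3. Without control replicate 3 it was -5.25 bases. The HA-Bcl-xL libraries lay on both sides of control replicates 1 and 2.

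Length under peaks was compared for the 4289 promoters with a peak in all 5 libraries, of which 45 were ribosomal, with limma on log2 bases centred on each library's median. Of all these promoters 0 passed an adjusted p of 0.05 (0%), with 210 below an unadjusted p of 0.05 and a lowest adjusted p of 0.834. No ribosomal gene passed. The count over all promoters was 13 with the replicate number as a block, 1 without control replicate 2, 3 without HA-Bcl-xL replicate 2 and 9 without HA-Bcl-xL replicate 3, with 0 ribosomal genes in each. The log2 difference of HA-Bcl-xL minus control was below 0 at 31 of the 45 genes and above 0 at 14, with a median of -0.11 against -0.02 for all promoters fitted. Without centring the split was 22 below and 23 above, with a median of 0.02 against 0.10 for all promoters. The size of the centred median depended on single libraries. It was -0.32 without HA-Bcl-xL replicate 2, against 0.02 for all promoters. Without control replicate 2 it was -0.07, against -0.03 for all promoters.

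RPL27A, which has TRIM66 on the other strand, had the lowest p among ribosomal genes. Its peaks covered 258, 318 and 212 bases in control and 173 and 104 in HA-Bcl-xL libraries, so the groups did not overlap. Of the 4289 promoters fitted, 241 (5.62%) had both HA-Bcl-xL libraries below all control libraries, as had 1 of the 45 ribosomal genes (2.22%). The log2 difference was -1.08 (SE 0.424), with an unadjusted limma p of 0.0227 and an adjusted p of 0.962. RPL23 had 456, 353 and 175 bases in control and 232 and 123 in HA-Bcl-xL libraries, which overlap, and a log2 difference of -0.97 (SE 0.429, limma adjusted p = 0.969). The other low values were -0.89 for RPL35, -0.87 for RPL27 and -0.64 for RPL34. In the other direction stood RPL5 at 0.60, RPS27A at 0.56, RPL32 at 0.43, RPS14 at 0.29 and RPL19 at 0.26, with limma adjusted p of 0.988 for RPL5.

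RPL5 had 222, 136 and 100 bases in control and 323 and 177 in HA-Bcl-xL libraries, and RPS27A, encoded as a fusion with ubiquitin, had 543, 366 and 175 in control and 571 and 485 in HA-Bcl-xL libraries. In both genes the HA-Bcl-xL libraries overlapped the control range. Standard errors were 0.39 to 0.55 over the 45 genes. Even the largest log2 difference, -1.08 at RPL27A, did not pass adjustment (limma adjusted p = 0.962). A change of that size in a single promoter thus could not be told from the spread at this depth and number of libraries.

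**Figure D5:**
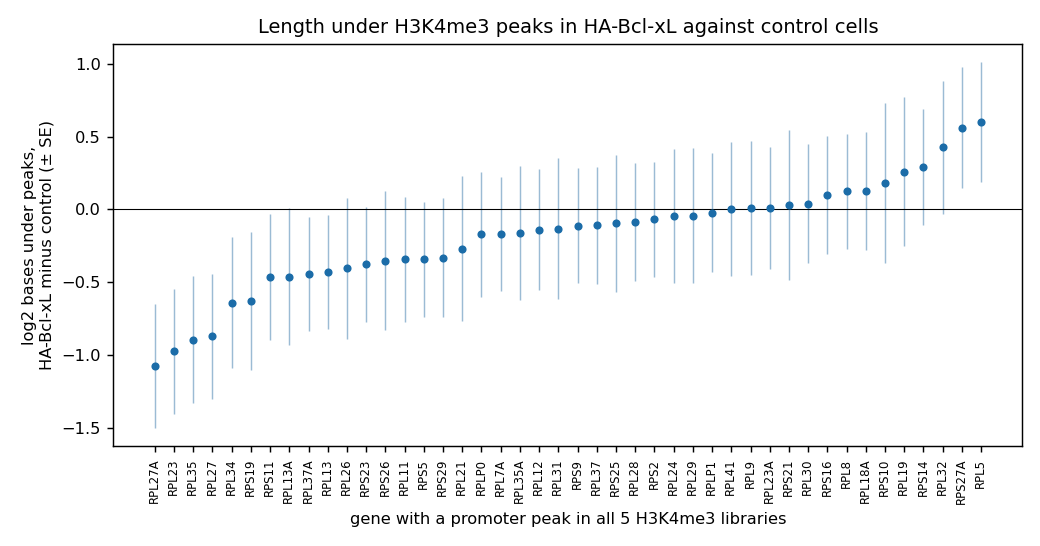
Log2 difference in bases under H3K4me3 peaks, HA-Bcl-xL minus control, with its limma standard error (bars), for ribosomal genes with a promoter peak in all 5 H3K4me3 libraries. Values run from -1.08 at RPL27A to 0.60 at RPL5, and none passed an adjusted p of 0.05.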

How the data were processed

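Peak lists of 11 CUT&RUN libraries were used, in narrowPeak format, 1 list per library. Each deposited peak has a score, which was not used, and the authors' fold over background, −log10 p and −log10 q. Per the submitters' processing notes, bcl2fastq 2.20, Trimmomatic 0.36, Bowtie2 2.2.9, MACS2 2.1.1 and deepTools 3.5.1 were used, with build hg19. The peak values are the authors' and served to rank or filter peaks within a list. The number of fragments at a summit was solved from fold and −log10 p to within 0.001, for 95.9% to 99.97% of peaks per list, and covers counting only, since PCR copies are not independent molecules.

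Annotation was GENCODE 44 lifted to GRCh37. A promoter was 1 kb either side of the most 5′ annotated end, or of the canonical start. Sequences were read from the GRCh37 genome. Counts were compared by exact permutation tests. Log2 bases under peaks were compared by limma 3.58.1 in R 4.3.3 with Benjamini-Hochberg adjustment, tested on simulated data. Python 3.11.15, numpy 2.4.6, pandas 2.3.3, scipy 1.17.1, statsmodels 0.14.6 and matplotlib 3.10.9 were used.

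The genes, lists and tests were chosen with earlier results of these data known. Named were genes marked in only 1 line, in no H3K4me3 library or in an IgG library, the 10 highest and 5 lowest by mean rank among those in all 5, the 5 with the smallest limma p in each direction, and neighbors by distance. Genes named for marking in 1 or 2 libraries or for the most bases were chosen after their values were seen. Same-numbered libraries were not paired by the labels. Alternatives were other windows and starts, summits only, a stricter −log10 q (5 or more), lists of equal length, removal of peaks overlapping IgG peaks, no centring, the replicate number as a block, and each library left out. A few genes are counted but not reported by name here, and the plots of single genes leave them out.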

Additional observations from a re-analysis of the deposited data

Results flagged for a closer look

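Peaks on the chromosome 6 haplotype contigs of hg19 lie outside the promoter counts, which use the main chromosomes. The H3K4me3 libraries had 135, 75 and 77 such peaks in control and 127 and 89 in HA-Bcl-xL cells, all above the 0 or 1 of the IgG libraries. RPS18 is the ribosomal gene of that region.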

How the results depend on the processing

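Of 74 values under other settings, 68 kept their direction and their side of the threshold or stayed near the main value, as did 48 of 56 with a library left out. Counts were judged near by their ratio to the main count, and shares and median lengths by the spread between libraries. Near was thus a loose term. With a −log10 q of at least 5, 34 genes marked in all 5 libraries, against 45, counted as near. So did a median log2 length difference of 0.0157 without centring, against -0.11, although its sign turned. With lists of equal length the count of HA-Bcl-xL minus control was -1.667 (exact permutation p 0.5), and 1 gene, RPS3A, was marked in both HA-Bcl-xL and no control library. The ribosomal share exceeded that of all genes by 41.67 points in a 500 bp window and by 49.77 at the canonical start. Deviations of same-numbered libraries in length under peaks correlated at 0.026 and 0.048. The deviations of the 2 HA-Bcl-xL libraries mirror each other, so these values are not independent. Whether replicate numbers pair the libraries was thus not settled. Under a replicate block the antibody difference was 62.6 (exact sign-flip permutation p 0.0625, the smallest that 5 pairs can give), limma called 13 promoters of which 0 were ribosomal, and no other call changed. Leaving out 1 library gave a range of -0.5 to 6.5 for the HA-Bcl-xL minus control count, 0 to 3 for genes marked only in HA-Bcl-xL and 1 to 2 only in control, 0 to 9 for limma calls (3 without HA-Bcl-xL replicate 2, 9 without HA-Bcl-xL replicate 3, 1 without control replicate 2, 0 of them ribosomal in every case) and -0.324 to -0.0701 for the median log2 length difference. The lone HA-Bcl-xL library is then assumed to vary like the control group. Short peaks of few fragments limit what can be seen: with a −log10 q of at least 5, 66, 50 and 47 ribosomal genes were counted in control and 60 and 57 in HA-Bcl-xL libraries.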
